A study of Mus musculus with 59 samples.

Results

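The 8 genes described here mark the alveolar type II cell, the cuboidal cell of the lung that makes, stores and recycles surfactant. They were chosen by name, and their probes were found on the array through the accession of each probe: 8 of the 37163 genes or transcripts measured, with 10 of the 55681 probes, since Sftpb and Sftpd have 2 probes each. The data come from adult male Muta™Mouse aged about 16 weeks, a transgenic line whose bacterial lacZ genes serve as a mutation target and are carried by every animal, controls included. Vehicle mice (0 mg/kg-bw/day) were gavaged with olive oil alone, and the other groups with benzo(b)fluoranthene (BbF), a polycyclic aromatic hydrocarbon, in olive oil at 25 (low), 50 (medium) or 100 (high) mg/kg-bw/day. Dosing went on daily for 28 days, and 72 hours later lung, liver and forestomach were collected, of which random pieces of whole tissue were extracted. Groups held 5 mice, with 4 in low-dose lung, which gave 19 lung, 20 liver and 20 forestomach arrays. Mice 1 to 5 received vehicle, 6 to 10 the low, 11 to 15 the medium and 16 to 20 the high dose, and mouse 7 has no lung array here. The submitters' labels disagree on the compound: BbF stands in the titles and the treatment protocol, benz(a)anthracene in an exposure label and in the design text.

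Surfactant is a film of phospholipid and protein that lowers surface tension at the air-liquid interface and keeps alveoli open during expiration. Sftpb and Sftpc encode the small hydrophobic surfactant proteins B and C, which spread the lipid film. Sftpa1 and Sftpd encode surfactant proteins A and D, secreted collectins that bind sugars on microbes and take part in innate defence. Abca3 encodes the transporter that loads phospholipid into lamellar bodies, the storage organelles of the cell, and Lamp3 a membrane protein of those organelles. Napsa encodes napsin A, an aspartic protease that trims the precursors of surfactant proteins B and C, and Slc34a2 the apical sodium-phosphate cotransporter that takes up phosphate from the alveolar lining fluid. Genes of this group depend in part on NKX2-1 and FOXA factors, whereas polycyclic aromatic hydrocarbons act on transcription through the aryl hydrocarbon receptor (AhR), which binds elements with the core GCGTG.

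The RefSeq promoter table (build GRCm38.p6) held 5 of the 8 genes. Those of Sftpa1, Sftpb, Slc34a2 and Abca3 are given here as the 250 bases before the annotated start. They run 5′ to 3′ on the strand of the gene. The ratios of Sftpa1, Sftpb and Slc34a2 rose and fell together over the lung arrays, but less so within a microarray slide, as given below. Abca3 was the gene with the lowest p at the high dose. Capitals mark matches on either strand to the AhR core GCGTG or to CTCAAG, a core of NKX2-1 sites.
Sftpa1, chr14:41131538-41131787, plus strand: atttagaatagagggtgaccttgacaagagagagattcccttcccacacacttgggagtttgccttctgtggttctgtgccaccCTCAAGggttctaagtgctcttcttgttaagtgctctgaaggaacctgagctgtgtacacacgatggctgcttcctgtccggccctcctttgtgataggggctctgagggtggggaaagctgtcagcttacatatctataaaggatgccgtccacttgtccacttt
Sftpb, chr6:72304360-72304609, plus strand: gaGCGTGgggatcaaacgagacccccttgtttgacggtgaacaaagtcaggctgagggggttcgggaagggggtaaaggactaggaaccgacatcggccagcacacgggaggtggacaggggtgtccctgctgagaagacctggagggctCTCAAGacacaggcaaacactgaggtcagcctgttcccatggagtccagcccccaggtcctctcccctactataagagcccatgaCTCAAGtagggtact
Slc34a2, chr5:53049103-53049352, plus strand: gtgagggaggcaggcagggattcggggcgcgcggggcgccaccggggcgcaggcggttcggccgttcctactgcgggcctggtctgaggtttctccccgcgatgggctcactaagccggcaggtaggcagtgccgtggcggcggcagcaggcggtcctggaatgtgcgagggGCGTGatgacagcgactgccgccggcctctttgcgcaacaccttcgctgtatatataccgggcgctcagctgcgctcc
Abca3, chr17:24351773-24352022, plus strand: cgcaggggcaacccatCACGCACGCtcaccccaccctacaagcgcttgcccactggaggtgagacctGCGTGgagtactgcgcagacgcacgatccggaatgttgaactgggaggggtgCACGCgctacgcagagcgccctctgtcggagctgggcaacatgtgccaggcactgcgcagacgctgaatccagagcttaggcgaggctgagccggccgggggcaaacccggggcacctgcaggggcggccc
The Sftpb promoter held 2 matches to CTCAAG and 1 to GCGTG, and that of Sftpa1 held 1 to CTCAAG. Slc34a2 had 1 match to GCGTG. In the Abca3 promoter there were 4 matches to GCGTG, of which 2 overlap by a base, and none to CTCAAG. The Lamp3 promoter, on chromosome 16, had neither of these and 1 match to TGTTTAC, a FOXA core, which was in none of the other 4. Among 32851 promoters of the table, 28.2% held GCGTG, 13.3% CTCAAG and 3.17% TGTTTAC in these 250 bases. A match describes the letters of the window and nothing about binding.

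Each value below is the log2 ratio of tissue RNA, labelled with Cy5, to a universal mouse reference RNA from cell lines, labelled with Cy3 and hybridized to the same array, so a level is a level relative to that reference. Probes well above background in Cy5 made up 44.7% to 68.8% of all probes on lung arrays, 39.6% to 51.9% on forestomach arrays and 37% to 46.1% on 12 liver arrays, against at most 12.9% on the 8 arrays of the third liver slide. In low-dose lung of mouse 6, 8 squamous epithelium markers (Krt5, Krt13, Lor and others) had a mean ratio of 3.81, and on the other 18 lung arrays between -0.38 and 0.24. Hepatocyte markers averaged between 1.14 and 2.01 on the lung arrays. Of that list Apoa1 was not well above background on any of them and Alb on 6 of 19. Signal over background of its other members is not given. Arrays have no read depth, and their number limits the precision.

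In lung, all 10 probes of the 8 genes were well above background in both dyes on 19 of 19 arrays, and none was flagged as saturated. To check the label, vehicle lung was compared with the vehicle livers and forestomachs of the same mice. The 8 genes were higher in lung in both comparisons, with no overlap between tissues. The share of all genes without such overlap is not given, so the lack of overlap is a description only. The Sftpc ratio of the 5 vehicle lungs was 7.21, 7.04, 7.05, 6.98 and 7.33, against -0.02 to 0.24 in vehicle liver and -0.13 to 0.34 in vehicle forestomach. The Sftpb ratio was 6.25, 6.00, 5.98, 6.38 and 6.72 in vehicle lung, and at most -0.07 in liver and 0.18 in forestomach. Thus the lungs stood several log2 units above every other vehicle array for these hydrophobic surfactant proteins.

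A gene counted as a DEG (called) where limma's moderated test, FDR-adjusted by Benjamini-Hochberg over all probes, gave an adjusted p up to 0.05 and the change was at least 1.5-fold, the thresholds of the study, and when at least 1 of its probes passed both. By this rule 8 of 8 were called higher in vehicle lung than in vehicle liver, where 18% of all genes were called in that direction, and 8 of 8 against forestomach, where 12.6% were. The median difference in log2 ratio over all probes was -0.02 and -0.01. Among genes measured in all 3 tissues, Abca3 differed by 2.66 from liver and by 3.05 from forestomach. Sftpa1, Sftpb, Slc34a2 and Napsa were well above background on 0 of 5 vehicle arrays of either other tissue, and Sftpc on 1 of 5 in liver and 0 of 5 in forestomach. Their calls and ratio differences therefore rest on background signal outside lung and set no size or order.

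**Figure D1:**
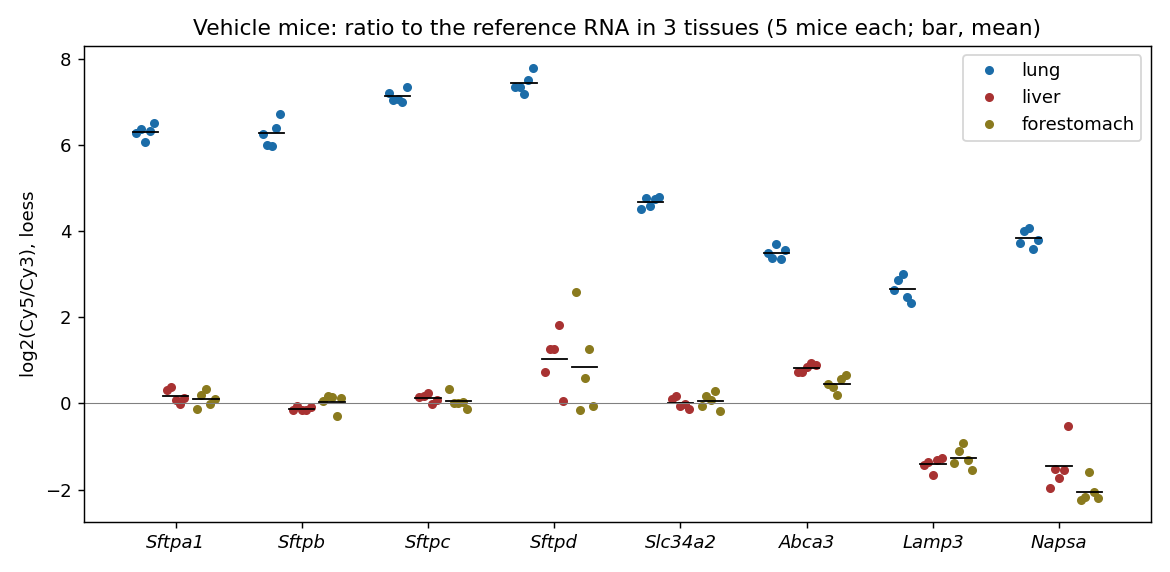
Log2(Cy5/Cy3) of the 8 genes (horizontal axis) in the 5 vehicle mice, 1 point per mouse and tissue, with bars at the means. For each gene the 5 lung points lie above every liver and forestomach point, with the smallest differences for Abca3 (2.66 against liver, 3.05 against forestomach).

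Where no vehicle array of the other tissue had the gene well above background, only a bound can be given, from the Cy5 channel alone after normalization between arrays. Both tissues were labelled with Cy5, and with no dye swap, dye bias in that channel was not tested. The channel was rebuilt from the normalized ratio and the mean intensity of both dyes, so it also depends on the Cy3 signal. The floor of a bound was the lowest value flagged well above background on each array. On this normalized scale Sftpa1 was at least 1050-fold higher in lung than in liver and at least 1140-fold higher than in forestomach. Its raw median Cy5 intensities over all arrays of each tissue, without background subtraction, gave lower ratios, 724 and 810. The bounds therefore hold only on the normalized scale. For the brighter Sftpb probe the bounds were 1040-fold and 1020-fold, and for the dimmer one 107-fold and 103-fold. Sftpc was at least 6380-fold higher than in forestomach, and 5840-fold higher than in liver, where 1 of 5 arrays was well above background. Bounds were lower for Slc34a2, at least 37.5-fold and 35.2-fold, and for the protease Napsa, at least 36.1-fold and 56.1-fold. Raw ratios fell below the normalized values for both Sftpb probes, Sftpc and Slc34a2 (30.7 and 29.7), and above them for Napsa (64.3 and 69.4). Abca3 and Lamp3 were also measured outside lung: lung exceeded liver by 6.4-fold and forestomach by 8.58-fold for Abca3, and by 15-fold and 12.8-fold for Lamp3. Lamp3 is also known from maturing dendritic cells.

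The signal of the reference RNA itself differed between tissues at some of these probes. The median Cy3 intensity of Sftpc was 5491.5 on lung arrays, 56 on liver arrays and 50 on forestomach arrays, although the same reference was used on all. For Sftpa1 it was 1665.5, 46.75 and 45, and for Slc34a2 131, 44.25 and 50.25. Sftpb and Sftpd behaved alike, with Cy3 in lung 16.7 to 35.7 times the median on the other tissues' arrays for their brightest probes. By contrast, Cy3 in lung was 0.868 to 1.42 times that of the other tissues for Abca3, Lamp3 and Napsa. On lung arrays Cy3 amounted to 1.41% to 3.54% of Cy5 for Sftpc and 0.939% to 2.04% for Sftpd, and to 20% to 63.9% for Lamp3. Where this Cy3 signal comes from was not tested. For Sftpa1, Sftpb, Sftpc, Sftpd and Slc34a2 the tissue differences in the ratio were smaller than those in the Cy5 channel. For the dose comparisons the Cy5 channel is therefore given beside the ratio. As it was rebuilt from normalized values of both dyes, it is not a check free of Cy3.

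**Figure D2:**
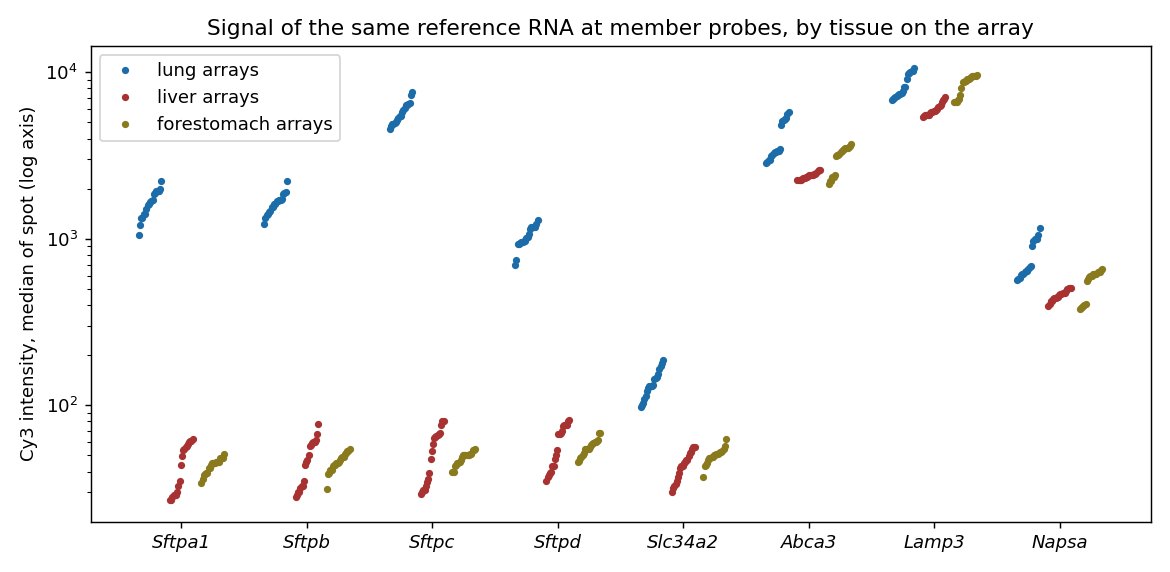
Cy3 intensity of the reference RNA (vertical axis, logarithmic) at the brightest probe of each gene on each of 19 lung, 20 liver and 20 forestomach arrays. Lung arrays stand apart for Sftpa1, Sftpb, Sftpc, Sftpd and Slc34a2, whereas the tissues lie close together for Abca3, Lamp3 and Napsa.

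The main comparison asked whether BbF altered these genes in lung. None of the 8 was called at any dose: 0 of 8 at the low dose, where 0.449% of all genes were called, 0 of 8 at the medium dose (0.638%) and 0 of 8 at the high dose (1.93%). Without adjustment, p was under 0.05 for 0, 1 and 1 of the 8 genes, and for 12.5%, 19.2% and 24.5% of all genes, at the low, medium and high dose, and the 1 was Abca3 at both doses. The largest change at the high dose was that of Abca3, and the changes of the 8 brightest probes lay between -0.25 and 0.14 on the log2 scale with a median of 0.07, beside a median of -0.002 over all genes. The 95% intervals of these 8 high-dose changes reached from -0.48 to 0.50 at the widest, short of the 1.5-fold threshold of 0.58. At the medium dose they reached from -0.45 to 0.69, past that threshold. On other scales, given below, some high-dose intervals passed it too. Without low-dose mouse 6, the lung with squamous markers, 0 of 8 were called at the low dose as well. In none of the 8 genes did a dosed group lie wholly above or below the vehicle group. The share of all genes with such a separation is not given, here or where single genes are said to separate below. In a whole tissue, fewer type II cells and less RNA per cell cannot be told apart.

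**Figure D3:**
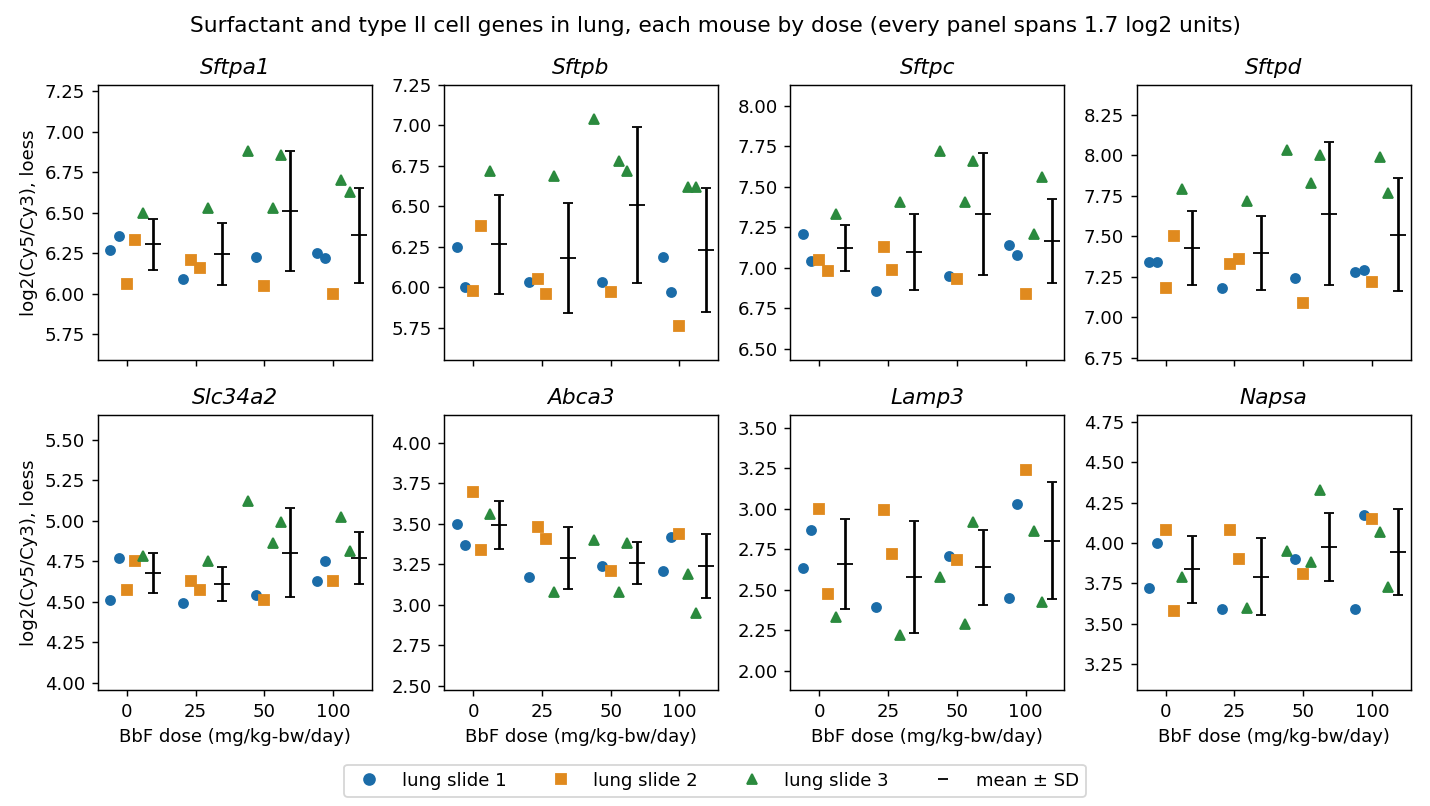
Log2(Cy5/Cy3) of each gene in each lung (points; colour and shape give the slide) against the BbF dose, with mean ± SD beside each group. The dose groups overlap for every gene, and for Sftpa1, Sftpb, Sftpc, Sftpd and Slc34a2 the arrays of lung slide 3 lie at or near the top.

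Sftpc, the gene most used as a marker of the type II cell, had ratios of 6.86, 7.13, 6.99 and 7.41 in the 4 low-dose lungs. Medium-dose lungs had 7.72, 6.95, 6.93, 7.41 and 7.66, and high-dose lungs 7.14, 7.08, 6.84, 7.21 and 7.56. Each of these groups held mice above and below the vehicle mice. The change from vehicle was -0.02 ± 0.16 (SE), 0.21 ± 0.15 and 0.04 ± 0.15 at the low, medium and high dose, with adjusted p of 0.988, 0.595 and 0.930. Group means were 7.12 ± 0.14 (SD, n = 5) in vehicle and 7.16 ± 0.26 (SD, n = 5) at the high dose.

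Sftpb, which encodes the other hydrophobic protein, had a mean ratio of 6.27 ± 0.30 (SD, n = 5) in vehicle, 6.18 ± 0.34 (SD, n = 4) at the low, 6.51 ± 0.48 (SD, n = 5) at the medium and 6.23 ± 0.38 (SD, n = 5) at the high dose. Its lowest value was 5.76 in high-dose mouse 18 and its highest 7.04 in medium-dose mouse 11. At the high dose its brighter probe differed from vehicle by -0.03 ± 0.21 (SE, adjusted p 0.963) and its other probe by -0.03 ± 0.09 (SE, adjusted p 0.918). The probes thus gave the same small difference, and their ratios correlated with r = 0.876 over 19 lungs.

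The collectins showed the same pattern. Sftpa1 averaged 6.30 ± 0.16 (SD, n = 5) in vehicle, 6.25 ± 0.19 (SD, n = 4) at the low, 6.51 ± 0.37 (SD, n = 5) at the medium and 6.36 ± 0.30 (SD, n = 5) at the high dose. In vehicle lungs Sftpd had ratios of 7.34, 7.34, 7.18, 7.50 and 7.79, and in high-dose lungs 7.28, 7.29, 7.22, 7.99 and 7.77. Values near 8 also occurred in medium-dose mice 11 and 15 (8.03 and 8.00), whereas mice 12 and 13 of that group had 7.24 and 7.09. Its 2 probes differed in sign at the high dose, with changes of 0.08 ± 0.18 (SE, adjusted p 0.881) and -0.10 ± 0.20 (SE, adjusted p 0.870).

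Abca3, the lamellar body lipid transporter, was the member with the lowest p. Its ratio was 3.50, 3.37, 3.70, 3.34 and 3.56 in vehicle lungs and 3.17, 3.48, 3.41 and 3.08 in low-dose lungs. Medium-dose lungs had 3.40, 3.24, 3.21, 3.08 and 3.38, and high-dose lungs 3.21, 3.42, 3.44, 3.19 and 2.95. Of the high-dose mice, 3 of 5 lay below the lowest vehicle mouse, as did 3 of 5 at the medium and 2 of 4 at the low dose. The differences from vehicle were -0.20 ± 0.11 (SE), -0.23 ± 0.10 and -0.25 ± 0.10 at the 3 doses. None passed the adjustment over all probes, with adjusted p of 0.616, 0.296 and 0.175 (unadjusted p 0.0734, 0.0333 and 0.0232). At the high dose the 95% interval was -0.46 to -0.04, and the fold 0.840. Within lung slide 1 (2 high-dose and 2 vehicle mice) the high-dose mean differed from vehicle by -0.12. The difference was -0.08 on slide 2 (1 high-dose and 2 vehicle mice) and -0.49 on slide 3 (2 high-dose and 1 vehicle mouse).

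Lamp3, in the membrane of the same organelle, had a ratio of 2.66 ± 0.28 (SD, n = 5) in vehicle and 2.80 ± 0.36 (SD, n = 5) at the high dose, a difference of 0.14 ± 0.17 (SE, adjusted p 0.744). Its high-dose values of 2.45, 3.03, 3.24, 2.86 and 2.42 spanned most of the range of the vehicle mice, 2.33 to 3.00. Napsa averaged 3.84 ± 0.20 (SD, n = 5) in vehicle and 3.94 ± 0.26 (SD, n = 5) at the high dose, a difference of 0.11 ± 0.13 (SE, adjusted p 0.756). Slc34a2 averaged 4.68 ± 0.13 (SD, n = 5) and 4.77 ± 0.16 (SD, n = 5), which gave 0.09 ± 0.11 (SE, adjusted p 0.738). All 3 differences were smaller than the SD of either group.

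A linear term in the dose was called for 0 of 8 genes (1.64% of all genes), with fitted changes from vehicle to the high dose between -0.22 and 0.17. Abca3 had the lowest value, -0.22 ± 0.10 (SE, unadjusted p 0.0390, adjusted p 0.246), and the other 7 had fitted changes above 0 with unadjusted p over 0.05.

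These results depended on the scale. With each array centred on its median in place of loess, all 8 genes had a positive change at the high dose, 0.25 to 0.63 with a median of 0.57, and 3 genes (Lamp3, Sftpa1 and Sftpd) were called higher, with adjusted p of 0.0360, 0.0224 and 0.0240, where 8.54% of all genes were called higher. Sftpc, Slc34a2 and Napsa passed the adjusted p there (0.0411, 0.00838 and 0.0261) but not 1.5-fold. The median change of all probes on that scale was 0.05, but that of the 500 brightest probes in lung was 0.36, against -0.12 after loess and 0.02 in the authors' processed values. The part of this shift in the members' values was not tested. In the Cy5 channel alone 6 of 8 changes at the high dose were below 0, 2 were above and none was called. There Sftpc changed by -0.29 ± 0.09 (SE, adjusted p 0.0728), Sftpd by -0.30, Sftpa1 by -0.27 and Abca3 by -0.28, and with the slide as a block Sftpc changed by -0.31 (adjusted p 0.0448), under the 1.5-fold threshold. The direction for Sftpa1, Sftpc, Sftpd and Slc34a2 at the high dose thus differed between the ratio and the Cy5 channel, and in Abca3 it was negative in both but positive after median centring.

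**Figure D4:**
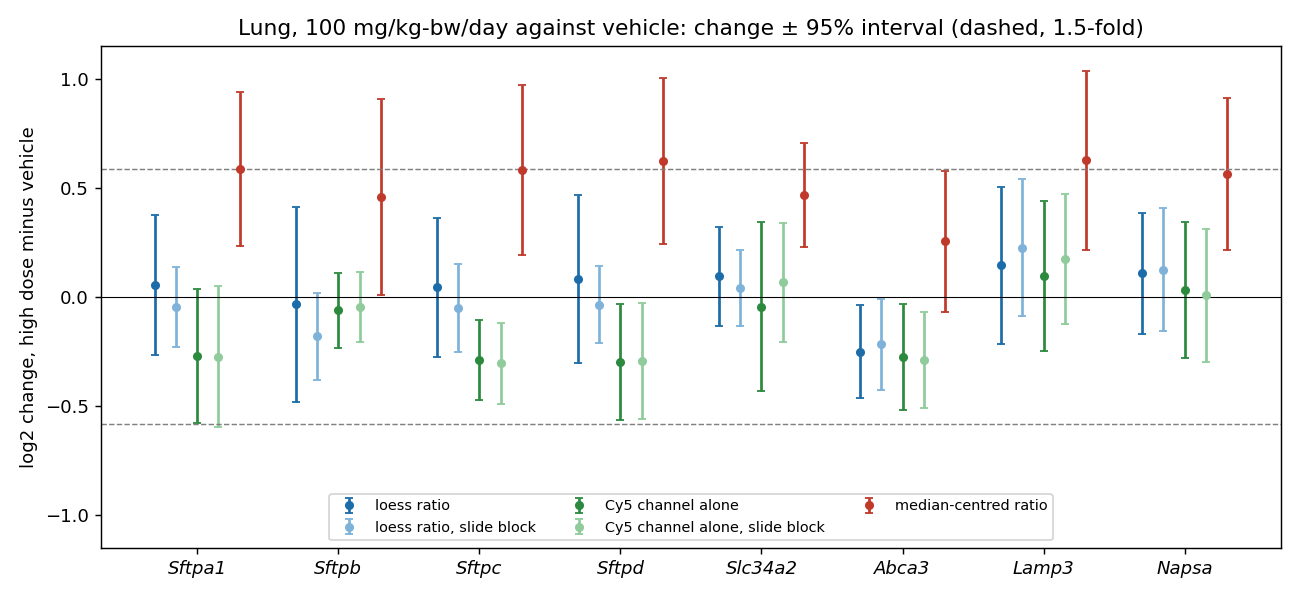
Log2 change at 100 mg/kg-bw/day against vehicle in lung for each gene, with 95% intervals, under 5 ways of processing the same arrays; dashed lines mark 1.5-fold. The loess ratio and the Cy5 channel stay inside 1.5-fold for all 8 changes, whereas the median-centred changes lie between 0.25 and 0.63. The Sftpa1 interval in the Cy5 channel with slide block reaches -0.60.

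For Sftpa1, Sftpb, Sftpc, Sftpd and Slc34a2 the slide means lay further apart than the dose means. On lung slide 3, which carried vehicle mouse 5, low-dose mouse 10, medium-dose mice 11, 14 and 15 and high-dose mice 19 and 20, Sftpd averaged 7.87 ± 0.13 (SD, n = 7), against 7.28 on each of the other 2 slides. All 7 Sftpd values there, 7.72 to 8.03, exceeded all 12 others, 7.09 to 7.50. Sftpb split the same way, with 6.62 to 7.04 on slide 3 and 5.76 to 6.38 elsewhere, as did Sftpa1, with 6.50 to 6.88 against 6.00 to 6.36. For Sftpc, 7.21 was the lowest value on slide 3 and the highest elsewhere. In the Cy5 channel alone slide 3 did not stand apart for Sftpd, with means of 16.28, 16.46 and 16.41 on slides 1 to 3. Abca3, Lamp3 and Napsa overlapped across the slides, while their Cy3 intensity was higher on slide 3, for example a median of 5262 for Abca3 against 3136.5 and 3221. As slide 3 held 3 of 5 medium-dose but 1 of 5 vehicle lungs, the slide was also fitted as a block. With the block the median change of the 8 genes was -0.07 for low, 0.02 for medium and -0.04 for high-dose lungs, and none was called.

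Over the 19 lungs the members fell into a group of 5 and a group of 3. Sftpa1, Sftpb, Sftpc, Sftpd and Slc34a2 correlated with each other with r between 0.765 and 0.961 (Sftpa1 and Sftpd, rho = 0.923) over their 10 pairs, and Abca3, Lamp3 and Napsa with r between 0.439 and 0.83 over 3 pairs. Between the groups r ranged from -0.558 (Sftpb and Lamp3) to 0.347. The first group is the one whose Cy3 signal was raised on lung arrays and whose ratios were highest on slide 3. Within slides its r fell to between 0.301 and 0.875, and in the Cy5 channel to between 0.0818 and 0.901, while r between the groups in the Cy5 channel reached 0.929 for Lamp3 and Slc34a2. All pairs share the arrays, their slides and the reference, and these r are descriptions over 19 lungs. The collectins Sftpa1 and Sftpd were the closest pair in every version except within slides, where Lamp3 and Napsa reached 0.944, and in the Cy5 channel, where Lamp3 and Slc34a2 reached 0.929.

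The 5 genes or transcripts most like the mean of the 8 members over the 19 lungs, among 17889 candidates well above background on all of them, were named by accession or symbol as follows. The transcript ENSMUST00000078094 had r = 0.883 (rho = 0.821) and Ptprb, an endothelial receptor phosphatase, r = 0.864 (rho = 0.786). Clic5, an alveolar type I cell and endothelial chloride channel protein, had r = 0.852 (rho = 0.772), XM_001476266 r = 0.852 (rho = 0.858) and ENSMUST00000110991 r = 0.851 (rho = 0.811). Without the 2 lungs farthest from the median of that mean, r was 0.755 to 0.846, and within slides 0.535 to 0.724. The mean joins both groups of members, which did not move together (median r between them -0.208). Median Cy3 was higher on lung than on forestomach arrays for each of these genes but ENSMUST00000110991, for example 180.5 against 62 for Ptprb.

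Other genes of surfactant metabolism and of the type II cell were counted from lists. Of 10 other type II cell markers, 0 were called in lung at any dose, with a median change of 0.01 at the high dose. The 2 with the highest Cy5 signal were Lyz1, a lysozyme gene, at -0.06 ± 0.20 (SE, adjusted p 0.927) and Chil1, a chitinase-like protein gene, at -0.08 ± 0.12 (SE, adjusted p 0.812). Among 9 type II cell transcription factors, 0 rose and 1 fell at the high dose, where 1.36% of all genes rose and 0.565% fell. The median of the list was -0.08. Gata6, which encodes a GATA factor of lung epithelium, fell from 1.27 ± 0.13 (SD, n = 5) to 0.66 ± 0.21 (SD, n = 5), by 0.61 on the log2 scale (adjusted p 0.000532), with 5 of 5 high-dose mice below all vehicle mice. This call was just past 1.5-fold: the change was -0.56 in the Cy5 channel and without vehicle mouse 1 or high-dose mouse 19 or 20, -0.57 with the slide block and -0.16 after median centring (adjusted p 0.626). Nkx2-1, the factor behind many surfactant genes, differed by 0.15 ± 0.11 (SE, adjusted p 0.534). Foxa1 differed by -0.56 ± 0.12 (SE, adjusted p 0.00685), under 1.5-fold. Nkx2-1 and Foxa1 were singled out after their values were seen.

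Of 14 genes of surfactant lipid synthesis, 1 was called, at the high dose, beside 1.93% of all genes. Elovl1, a fatty acid elongase gene, was called through its dimmer probe, 0.68 ± 0.17 (SE, adjusted p 0.0211), while its brightest probe gave 0.44 ± 0.14 (SE, adjusted p 0.0710). The call was lost in the Cy5 channel, with the mean of its probes (0.56, adjusted p 0.0343) and without any 1 of mice 1, 4, 17, 19 or 20. The median of the list was -0.12. Genes lower at an adjusted p up to 0.05 but by less than 1.5-fold included Chka, for a choline kinase, at -0.46 (adjusted p 0.0140) at the high dose, and Acly, for ATP citrate lyase, at -0.45 (adjusted p 0.0299) at the medium dose. Of 10 genes of surfactant protein processing, uptake and turnover, 1 rose and 0 fell at the high dose, with a median of 0.145. Abca1, the cholesterol and phospholipid exporter, rose from 1.43 ± 0.24 (SD, n = 5) to 2.23 ± 0.16 (SD, n = 5), by 0.79 ± 0.13 (SE, adjusted p 0.000571), and each of the 5 high-dose mice exceeded every vehicle mouse. Its change in the Cy5 channel was 0.58 (adjusted p 0.0780). Prdx6, for a peroxiredoxin with phospholipase activity, passed the adjusted p downward, at -0.37 (adjusted p 0.0100), but not 1.5-fold. Chka, Acly and Prdx6 were named after their values were seen. At the low and medium doses 0 genes of either list were called.

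Markers of other lung cells were counted beside these. Alveolar type I cell markers gave 1 of 11 at every dose, namely Igfbp2, an insulin-like growth factor binding protein gene, which rose by 0.82, 1.00 and 1.16 on the log2 scale (adjusted p 0.0270, 0.00283 and 0.000213), beside 0.422%, 0.49% and 1.36% of all genes called higher. The median of the list at the high dose was -0.187, and Vegfa, a vascular growth factor gene, was at -0.40 (adjusted p 0.0169), under 1.5-fold. Of 10 endothelial markers 4 rose at the high dose: Emcn, for endomucin, by 1.81 (adjusted p 0.000456), the junction genes Cdh5 by 0.82 (adjusted p 0.0131) and Pecam1 by 0.74 (adjusted p 0.00250), and Egfl7, for a secreted vascular factor, by 0.82 (adjusted p 7.53e-07). The median of these 10 was 0.376, and Ramp2, for a receptor activity-modifying protein, was at -0.42 (adjusted p 0.0360), under 1.5-fold. Of 9 macrophage markers 1 rose, the scavenger receptor gene Marco, by 1.30 (adjusted p 0.0274). The median of these 9 at the high dose was 0.002, and the lowest change was -0.90. The high-dose call of Marco was lost without any 1 of 7 mice (2, 3, 4, 17, 18, 19 or 20). Club cell (0 of 7), ciliated cell (0 of 8), mesenchymal (0 of 8), squamous (0 of 8) and hepatocyte markers (0 of 8) gave no call at any dose, although Col3a1 of the mesenchymal list (0.58, adjusted p 0.0336) and Apoa2 of the hepatocyte list (0.50, adjusted p 0.00835) passed the adjusted p at the high dose, both under 1.5-fold. Vegfa, Ramp2, Col3a1 and Apoa2 were named after their values were seen. Across the 5 vehicle and 5 high-dose lungs the mean ratio of the endothelial markers was 4.34 to 4.80 and 4.73 to 5.21, that of the club cell markers 4.91 to 5.87 and 4.99 to 5.85, that of the macrophage markers 2.78 to 3.94 and 2.85 to 3.81, and that of the 8 members 5.17 to 5.35 and 5.09 to 5.46. The part of cell composition in any of these values was not tested. Rtkn2, Scgb3a2 and Cd68 of these lists were not measured under those names.

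Outside lung, BbF gave no call among the 8 genes. In liver 0 of 8 were called at each dose (0%, 0% and 0.00538% of all genes), and in forestomach 0 of 8 (0%, 0% and 0.102%). As at most 2 of 37163 genes were called in liver at any dose, the liver counts say little about the members. Unadjusted p under 0.05 was reached in liver by 1, 1 and 0 of the 8, beside 4.91%, 6.48% and 10.4% of all genes, and in forestomach by 0, 1 and 1, beside 6.61%, 8% and 12%. These were Sftpc at the low and Sftpb at the medium dose in liver, and Lamp3 at the medium and high dose in forestomach. No liver array had the brighter Sftpb probe well above background in Cy5, and its 5 medium-dose values, 0.00 to 0.13, lay above the 5 vehicle values, -0.16 to -0.07. Forestomach Lamp3 had the lowest p of these, a difference of -0.42 ± 0.14 (SE, unadjusted p 0.00602, adjusted p 0.313) at the high dose, but after median centring it was -0.093 (adjusted p 0.805). The difference of the high-dose effects of lung and another tissue was tested directly, and 0 of 8 differences were called against liver (0.439% of all genes) and 0 of 8 against forestomach (1.03%). At an unadjusted p under 0.05, 0 and 2 genes passed, beside 13.7% and 14.1% of all genes. The 2 were Lamp3, whose high-dose effect in lung minus that in forestomach was 0.56 ± 0.23 (SE, adjusted p 0.326), and Abca3, with -0.34 ± 0.16 (SE, adjusted p 0.461).

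Sftpd was the member that varied most outside lung. Its ratio in the 20 forestomachs ran from -0.23 to 4.12 with a median of 2.26, and in the 20 livers from -0.20 to 3.30. In forestomach the vehicle mice had 2.58, -0.15, 0.60, 1.27 and -0.07, and the high-dose mice 3.70, 2.47, 2.82, 3.75 and -0.20, so the groups overlapped. The difference of the high-dose effects, lung minus forestomach, had the widest interval of all, -3.56 to 0.39. The mean ratio of 9 glandular stomach markers, such as the gastrokine Gkn1, the proton pump gene Atp4a and the mucin gene Muc5ac, moved with Sftpd. On 6 forestomach arrays with a marker mean of 0.21 to 1.12, Sftpd lay between -0.23 and 0.13, and on 13 arrays with a marker mean of 4.05 to 6.72 between 0.60 and 4.12. The remaining array, of vehicle mouse 5, had 2.47 and -0.07. The 13 arrays were spread over the groups, with 4 from high-dose mice and 3 from each of the other groups. This list was written after the Sftpd values were seen, and the part of glandular stomach in the Sftpd values was not tested.

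**Figure D5:**
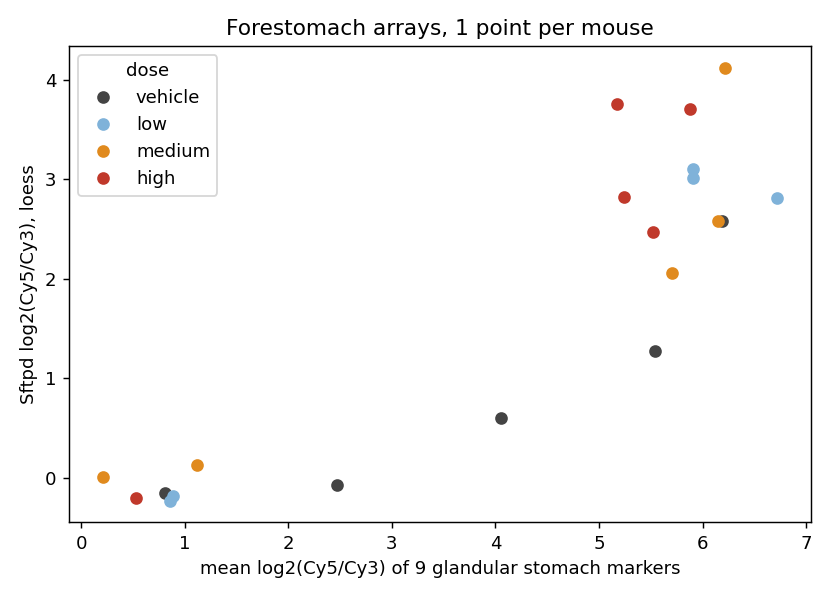
Sftpd log2(Cy5/Cy3) (vertical axis) against the mean log2(Cy5/Cy3) of 9 glandular stomach markers (horizontal axis) on the 20 forestomach arrays, coloured by dose. The 7 arrays with a marker mean of 2.47 or less lie at or under 0.13, and the other 13 at 0.60 or above, with all 4 dose groups on both sides.

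In liver, Sftpd was split by slide. The 8 arrays of the third liver slide, the one with few probes above background, had -0.20 to 0.70, and the other 12 had 0.74 to 3.30. The brightest Sftpd probe was well above background in Cy5 on 12 of 20 liver arrays. The mean ratio of 6 biliary epithelium markers also differed by slide, with -0.58 to -0.37 on the third slide and -1.92 to -1.53 on the others. Of these markers only Spp1 was well above background on the third slide. The mean there rests largely on background signal and sets no marker level. With the slide as a block the lung minus liver difference of the high-dose effect was called for 1 of 8 genes, Sftpd, through its dimmer probe. Its brightest probe then gave -0.99 (adjusted p 0.0865), against -0.12 (adjusted p 0.960) without the block and -0.97 (adjusted p 0.383) without the third liver slide. The third slide held high-dose mice 18, 19 and 20 but only mouse 5 of the vehicle group. Leaving it out changed no count of called members in the liver comparisons. As only mice 16 and 17 of the high dose then remained, the unchanged high-dose count says little.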

How the data were processed

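RNA of lung, liver and forestomach (59 arrays) was labelled with Cy5 and a universal mouse reference RNA with Cy3, with no dye swap. The authors scanned the arrays and deposited spot intensity values from Feature Extraction 10.7.3.1; their processed log2 ratios were deposited too and served as an alternative. Of 62976 spots an array, 59305 were not controls. Here, median intensities without background subtraction were normalized by loess within each array and spots of a probe averaged, which gave 55681 probes. Agilent accessions were matched to symbols through RefSeq, and 26413 probes had a symbol (20018 symbols). The study's methods name MAANOVA's Fs test, which was not used here. In its place limma 3.58.1 (R 4.3.3) was fitted to all probes of a tissue, with dose groups as terms and Benjamini-Hochberg adjustment. The fit was checked on simulated lung arrays with independent noise and no slide effect. That check therefore does not cover the slide differences seen here. Vehicle tissues and high-dose effects were compared in fits over both tissues. A gene is represented by its probe with the highest mean Cy5 intensity, and called if any probe passed.

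The members and all gene lists (other type II cell markers, transcription factors, lipid synthesis, processing and turnover, and markers of type I, club, ciliated, endothelial, mesenchymal, macrophage, squamous and hepatocyte cells, and 1 further list that is not reported here) were chosen with earlier results of these data known. Named genes were all members, called list genes, of lists without a call the 2 brightest genes, and the 5 genes most like the members' mean. Of the marker lists without a call outside the type II cell, only the changes of Col3a1 and Apoa2 are given, both named after their values were seen. The glandular stomach and biliary lists, the fits without the third liver slide and the fits of the Cy5 channel or of median-centred ratios with a slide block were added after the data were seen. The same mouse gave its tissues, so the mouse is a true pairing; deviations from the group means of tissues of a mouse correlated with r between -0.189 and 0.155. Alternatives were median centring, normexp (offset 50), the Cy5 channel alone, the authors' log2 ratios, the mean of a gene's probes, a filter on dim probes, the slide as a block, the rank of the dose, the mouse as a block and leaving out each mouse.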

Additional observations from a re-analysis of the deposited data

Results flagged for a closer look

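Of 96 groups of 4 or 5 arrays examined for a value far from the rest, 5 held one, and chance gives about 1 in 20. In low-dose lung, Sftpb of mouse 10 was 6.69 and the next highest value 6.05; mouse 10 was the only low-dose lung on slide 3, where Sftpb ranged from 6.62 to 7.04. In medium-dose lung, Napsa of mouse 15 was 4.33 and the next 3.95. The other 3 were probes not well above background in forestomach. Sftpb was -0.29 in vehicle mouse 4, with the next lowest at 0.06, and 0.20 in high-dose mouse 19, with the next highest at 0.00. Napsa was -1.60 in vehicle mouse 3, with the next highest at -2.06.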

How the results depend on the processing

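The count of called members was 0 at each lung dose, 0 in liver and forestomach and 8 of 8 between vehicle tissues under normexp, the Cy5 channel alone, the authors' log2 ratios, the mean of all probes and the filter on dim probes. With each mouse left out in turn there were 0 to 0 members called by dose, 8 to 8 between tissues and 7 to 13 called list genes, against 10. With the mouse as a block, to keep the pairing of tissues, the counts were 8, 8, 0 and 0 as without it, and no call changed. Median centring gave 3 called members at the high dose, 2 (Lamp3 and Sftpd) for the trend (6.46% of all genes rose there) and 27 list genes. With a slide block, median centring gave 2 (Lamp3 and Napsa) at the high dose (8.81% of all genes rose), and the loess ratio gave 1 (Sftpd) for the high-dose effect in lung minus liver (1.81% of all genes).

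Signs turned as follows, on the log2 scale and with the cause not tested. After median centring the low-dose changes were 0.25 for Sftpa1, 0.22 for Sftpb, 0.30 for Sftpc, 0.26 for Sftpd, 0.080 for Abca3, 0.21 for Lamp3, 0.16 for Slc34a2 and 0.21 for Napsa. Medium-dose changes were then 0.071 for Abca3 and 0.31 for Lamp3, high-dose changes 0.46 for Sftpb and 0.25 for Abca3, the trend 0.24 for Abca3, low-dose forestomach Lamp3 0.13 and the lung minus liver effect of Sftpd 0.41. Median centring with a slide block gave 0.29 for Sftpb and 0.28 for Abca3 at the high dose. In the Cy5 channel the medium-dose changes were -0.14 for Sftpa1, -0.12 for Sftpb, -0.22 for Sftpc, -0.061 for Sftpd and -0.15 for Slc34a2, and the high-dose changes -0.27 for Sftpa1, -0.29 for Sftpc, -0.30 for Sftpd and -0.045 for Slc34a2. With a slide block in that channel they were -0.15 for Sftpa1, -0.12 for Sftpb, -0.25 for Sftpc, -0.084 for Sftpd and 0.040 for Lamp3 at the medium dose, and -0.27 for Sftpa1, -0.31 for Sftpc and -0.29 for Sftpd at the high dose. The slide block on the loess ratio gave -0.039 for Sftpb, -0.029 for Sftpd and 0.094 for Lamp3 at the medium dose, and -0.047 for Sftpa1, -0.052 for Sftpc and -0.037 for Sftpd at the high dose. The authors' ratios gave 0.055 for Sftpc and 0.0024 for Sftpd at the low and 0.032 for Lamp3 at the medium dose, and the mean of both probes -0.0067 for Sftpd at the high dose.

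Leaving out each mouse gave low-dose ranges of -0.25 to 0.031 for Sftpb, -0.13 to 0.054 for Sftpc, -0.14 to 0.058 for Sftpd, -0.22 to 0.041 for Lamp3 and -0.14 to 0.024 for Napsa, and -0.10 to 0.065 for Lamp3 at the medium dose. At the high dose the ranges were -0.030 to 0.15 for Sftpa1, -0.13 to 0.083 for Sftpb, -0.055 to 0.12 for Sftpc and -0.037 to 0.17 for Sftpd, and for Sftpd in lung minus liver -0.45 to 0.26. None of these changes was called in any of those fits. Signal over background limits Sftpa1, Sftpb, Slc34a2 and Napsa outside lung to bounds.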
